A study of Mus musculus with 6 samples.

Results

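The genes described here are the Toll-like receptors Tlr1, Tlr2, Tlr3, Tlr4, Tlr5 and Tlr9, the NOD receptors Nod1 and Nod2, and the adaptors Myd88 and Ticam1. They were taken by symbol, and all 10 were found among the 21397 genes of the deposited expression table. RNA was sequenced from small intestinal organoids, which are cultures of epithelium grown from isolated crypts, of Fpr2f/f mice. These mice carry a floxed Fpr2 allele, and no Cre is named for the organoids of either group, so the controls share the allele. The MMK-1 group was cultured for 5 days with MMK-1 at 1 μmol/L, a synthetic peptide that activates the formyl peptide receptor FPR2, and the control group received the vehicle, 0.1% DMSO. The labels of this group state 1 mM as the dose, and the protocol text was followed instead. Each group had 3 libraries, and each sample is stated to hold organoids pooled from 3 mice, so the spread between libraries is the spread between such pools or between cultures of them.

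Toll-like receptors are membrane proteins that bind microbial molecules at the cell surface or in endosomes. Tlr5 binds bacterial flagellin, Tlr3 binds double-stranded RNA, Tlr4 binds lipopolysaccharide, Tlr9 binds DNA rich in unmethylated CpG, and Tlr2, often paired with Tlr1, binds bacterial lipoproteins. Nod1 and Nod2 are cytosolic sensors of peptidoglycan fragments that signal through the kinase Ripk2. Most Toll-like receptors recruit Myd88, while Tlr3 signals through Ticam1, also called TRIF, which Tlr4 uses as well, and these routes lead to NF-κB and to interferon regulatory factors. In the gut epithelium these receptors face a dense microbiota, and their place and level differ between cell types of the crypt and villus. Organoid cultures hold epithelial cells without the immune cells of the mucosa.

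Ticam1, Tlr5 and Tlr3 transcripts were lower with MMK-1, Myd88 did not pass the test, and the remaining 6 receptors had too few fragments for the test used first. Tlr5 was at 0.654 of its control level, Tlr3 at 0.753 and Ticam1 at 0.86. The level is given in FPKM, which scales the fragments on a gene to its length and to the library total. In the control libraries the order of the mean FPKM was Ticam1, Myd88, Tlr3 and Tlr5, with no overlap between neighbours in this order. Nod2, Nod1, Tlr1, Tlr4 and Tlr2 followed at means between 0.0891 and 0.0027 FPKM, and each of these overlapped the next in this order. Tlr9 was at 0 in all 3 control libraries. Ticam1 lay at percentile 86.4 of all listed genes by mean FPKM over the 6 libraries, Myd88 at 76.5, Tlr3 at 59.3 and Tlr5 at 55.0. Ticam1 and Myd88 together made up between 85.3% and 88.2% of the summed FPKM of the 10 genes in every library.

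Differences were tested with limma on log2(FPKM + 1) for 10551 genes whose mean was 1 FPKM or more. A gene was called where p, adjusted after Benjamini and Hochberg, was 0.05 or less. Of the 10 genes, 4 entered this test. Lower with MMK-1 were 3 of these 4, where 24.7% of all genes tested were called lower, and higher were 0 of 4, where 48.5% of all genes tested were called higher. At an unadjusted p of at most 0.05, 0 of the 4 were higher and 3 were lower. Of the 10551 genes tested, 7941 were under 0.05 in either direction. Limma-voom on recovered fragments also called 0 members higher, where it called 6215 of 15898 genes higher. The ranges of the control and MMK-1 libraries did not overlap for these 3 genes, as for 26.3% of all genes tested that lay lower in every MMK-1 library. None of the 4 reached a fold change of 2 with an unadjusted p of at most 0.05, which 7.04% of the genes tested did. The median log2 fold change of the 4 was −0.26, compared with 0.13 over all genes tested and −0.41 over all genes called lower. The exact two-sided permutation test of 3 against 3 libraries cannot go below p = 0.1, and Tlr3, Tlr5 and Ticam1 each gave this value.

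The start regions of the 4 genes are shown because 3 of them fell together and Myd88 did not. Each run is a RefSeq window on GRCm38.p6 from 250 bases before to 50 bases after the annotated start of the transcript, written 5′ to 3′ on the strand of the gene. The windows are chr8:45410331-45410630 on the minus strand for Tlr3, chr1:182954538-182954837 on the plus strand for Tlr5, chr17:56276718-56277017 on the minus strand for Ticam1 and chr9:119339969-119340268 on the minus strand for Myd88. Capitals mark matches, on either strand, to the κB consensus, to the interferon-stimulated response element, read as GAAA, 2 bases of any kind and GAAA again, to the AP-1 element TGANTCA or to the STAT element TTCNNNGAA.
Tlr3: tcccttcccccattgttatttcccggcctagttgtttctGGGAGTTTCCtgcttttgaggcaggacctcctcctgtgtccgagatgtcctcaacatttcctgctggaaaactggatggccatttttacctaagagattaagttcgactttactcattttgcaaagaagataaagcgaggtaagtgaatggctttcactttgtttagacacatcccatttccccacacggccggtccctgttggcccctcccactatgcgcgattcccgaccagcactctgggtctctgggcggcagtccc
Tlr5: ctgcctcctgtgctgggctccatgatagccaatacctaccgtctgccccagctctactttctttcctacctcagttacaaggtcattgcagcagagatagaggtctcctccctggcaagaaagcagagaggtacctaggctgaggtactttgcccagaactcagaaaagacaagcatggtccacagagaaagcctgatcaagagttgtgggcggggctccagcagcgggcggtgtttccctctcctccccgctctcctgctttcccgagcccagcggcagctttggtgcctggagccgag
Ticam1: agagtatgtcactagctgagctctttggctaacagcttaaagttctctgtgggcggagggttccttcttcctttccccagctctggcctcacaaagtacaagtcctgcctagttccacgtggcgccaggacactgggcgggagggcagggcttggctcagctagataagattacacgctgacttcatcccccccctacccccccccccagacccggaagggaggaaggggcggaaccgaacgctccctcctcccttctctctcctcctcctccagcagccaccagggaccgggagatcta
Myd88: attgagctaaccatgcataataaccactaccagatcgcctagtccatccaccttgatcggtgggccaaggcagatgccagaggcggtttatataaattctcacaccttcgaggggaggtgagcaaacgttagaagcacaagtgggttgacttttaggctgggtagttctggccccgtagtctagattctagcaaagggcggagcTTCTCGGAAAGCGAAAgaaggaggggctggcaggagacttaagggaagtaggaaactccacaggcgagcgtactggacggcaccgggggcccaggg

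The Tlr3 window held a κB match, GGGAGTTTCC, from −211 to −202 relative to the start, and 8.46% of all 32851 windows held such a match. The Myd88 window held GAAAGCGAAA from −40 to −31, a match that 3.44% of all windows had, and TTCTCGGAA from −46 to −38, a STAT match found in 8.3% of windows, and these matches share bases. The Tlr5 and Ticam1 windows held none of the 4 motifs, so no motif searched was shared by the 3 genes that fell. Of the other members, Tlr2 had κB matches from −173 to −163 and from −8 to 2, Tlr9 had the AP-1 match TGACTCA, present in 7.81% of windows, from −58 to −52, and Tlr1 and Nod1 each had a STAT match at another annotated start of the gene. The Nod2 window had none, and Tlr4 has no window. A match is only a run of letters, and no binding was measured.

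Tlr5, the flagellin receptor at chr1:182954788-182976044, gave 2.16, 2.25 and 2.25 FPKM with vehicle, against 1.53, 1.36 and 1.46 FPKM with MMK-1. These values rest on 514, 536 and 533 fragments in the controls and 345, 311 and 344 with MMK-1. Every MMK-1 library lay below every control library. The means were 2.22 ± 0.0497 and 1.45 ± 0.0837 FPKM (SD, n = 3 each), and the log2 fold change was −0.39 with an SE of 0.0564 and an adjusted p of 2.4e-04 in limma. The pseudocount of 1 shrinks a change at this level. With limma-voom, which models the fragments themselves, the log2 fold change was −0.61.

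The genes whose log2(FPKM + 1), centred on each gene's own mean, lay nearest to that of Tlr5 over the 6 libraries were Neu3, Zfp280c, Naip1, Oga and Adap1, at Euclidean distances between 0.0427 and 0.0577. Naip1 belongs to the NAIP family of cytosolic proteins, of which other members bind flagellin, and it was found by the distance and not by its role. Its mean level was 16.6 FPKM and its log2 fold change −0.40, against −0.39 for Tlr5. Neu3 is a sialidase and Oga removes O-linked N-acetylglucosamine from proteins, and their log2 fold changes were −0.37 and −0.40. The distance describes a similar step between the groups, which many genes share.

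Tlr3, the receptor for double-stranded RNA at chr8:45395665-45411080, gave 3.45, 3.24 and 3.11 FPKM in the controls and 2.46, 2.51 and 2.41 FPKM with MMK-1. The fragments were 654, 616 and 588 in the controls and 442, 456 and 453 with MMK-1. The control libraries were spread more widely than the MMK-1 libraries, and the groups did not overlap. The means were 3.27 ± 0.172 and 2.46 ± 0.049 FPKM (SD, n = 3 each), and the log2 fold change was −0.30 with an SE of 0.0542 and an adjusted p of 9.5e-04 in limma. The transcript has a GC content of 40.0%, and removing each library's trend on GC content moved the log2 fold change to −0.59. In GENCODE the exons share 381 bases with the antisense transcript Gm45542, and it is not stated whether the counting used strand.

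Ticam1, the adaptor at chr17:56269319-56276786 on which Tlr3 signalling depends, gave 23.3, 24.0 and 23.1 FPKM in the controls and 19.3, 20.6 and 20.6 FPKM with MMK-1. It had the most fragments of the 10 genes, between 2443 and 2547 in the controls and between 1939 and 2169 with MMK-1. The groups did not overlap, and the lowest value was that of MMK-1 replicate 1. The means were 23.5 ± 0.456 and 20.2 ± 0.763 FPKM (SD, n = 3 each), and the log2 fold change was −0.21 with an SE of 0.044 and an adjusted p of 0.00234 in limma. Receptor and adaptor of the double-stranded RNA route were thus both lower.

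Myd88, the adaptor at chr9:119335934-119341411 shared by most Toll-like receptors and by the interleukin-1 receptor family, gave 9.98, 11.1 and 9.52 FPKM in the controls and 11.2, 10.9 and 11.2 FPKM with MMK-1. Control replicate 2 lay among the MMK-1 libraries, and the other control libraries lay below all of them. The means were 10.2 ± 0.791 and 11.1 ± 0.166 FPKM (SD, n = 3 each), and the log2 fold change was 0.12 with an SE of 0.057 and an adjusted p of 0.0889 in limma. The exact permutation test gave p = 0.2. Without Control replicate 2 the log2 fold change was 0.17 with an adjusted p of 0.0235, and with median-of-ratios scaling it was −0.03, so neither a direction nor a change was established for Myd88. In GENCODE its exons share 290 bases with Acaa1a, a peroxisomal thiolase gene on the opposite strand. Acaa1a fell from 93.7 ± 1.81 to 46.4 ± 2.37 FPKM (SD, n = 3 each), and without a stated strand setting reads of the shared bases cannot be told apart, so the level of Myd88 is uncertain to that extent.

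**Figure D1:**
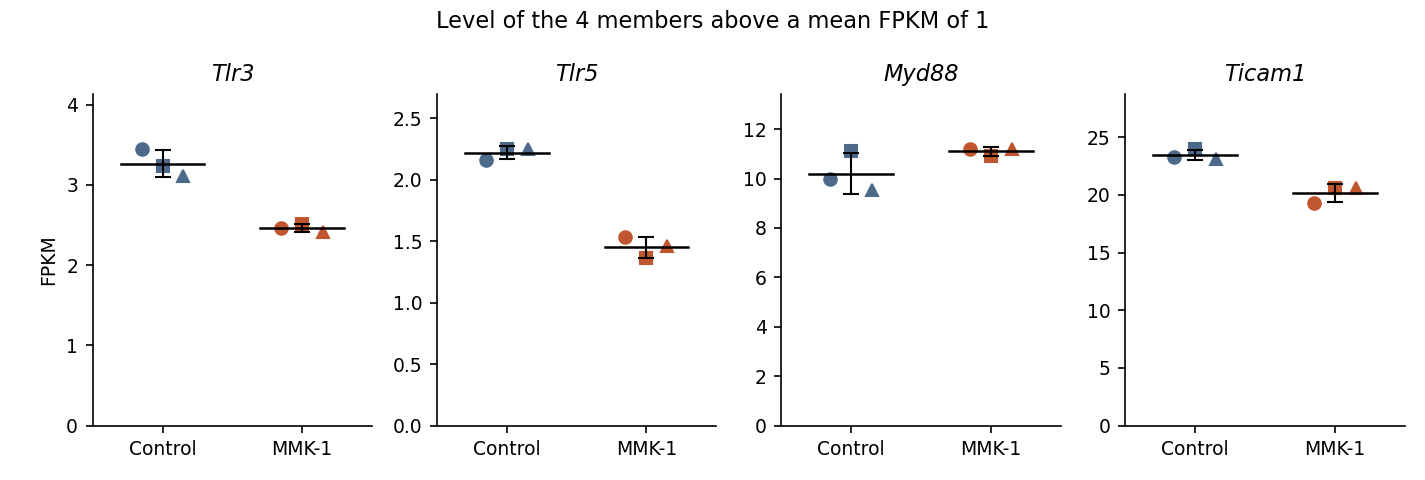
FPKM of Tlr3, Tlr5, Myd88 and Ticam1 in each library, with circles, squares and triangles for replicates 1, 2 and 3, lines for group means and bars for the SD of 3 libraries; each vertical axis starts at 0 and has its own range. The control and MMK-1 libraries are apart for Tlr3, Tlr5 and Ticam1, while Control replicate 2 of Myd88, at 11.1 FPKM, lies among the MMK-1 libraries.

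The ratio of 2 genes in a library does not depend on how libraries are scaled to each other. The ratio of the FPKM of Ticam1 to that of Myd88 was 2.34, 2.17 and 2.43 in the controls and 1.72, 1.88 and 1.84 with MMK-1. The ratio was lower in every MMK-1 library, with an exact permutation p of 0.1, the smallest possible here. The ratio of Tlr3 to Tlr5 was 1.59, 1.44 and 1.38 in the controls and 1.61, 1.84 and 1.65 with MMK-1. Both receptors fell, and the ratio was higher in every MMK-1 library, though only just for MMK-1 replicate 1 against Control replicate 1, with an exact permutation p of 0.1. The ratio does not remove an effect of GC content. With the GC correction Tlr3 was at −0.59 and Tlr5 at −0.46, against −0.30 and −0.39 without it. These values are on log2(FPKM + 1), where the pseudocount shrinks Tlr5, the lower of the 2, more. Which of the 2 fell more was thus not established.

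**Figure D2:**
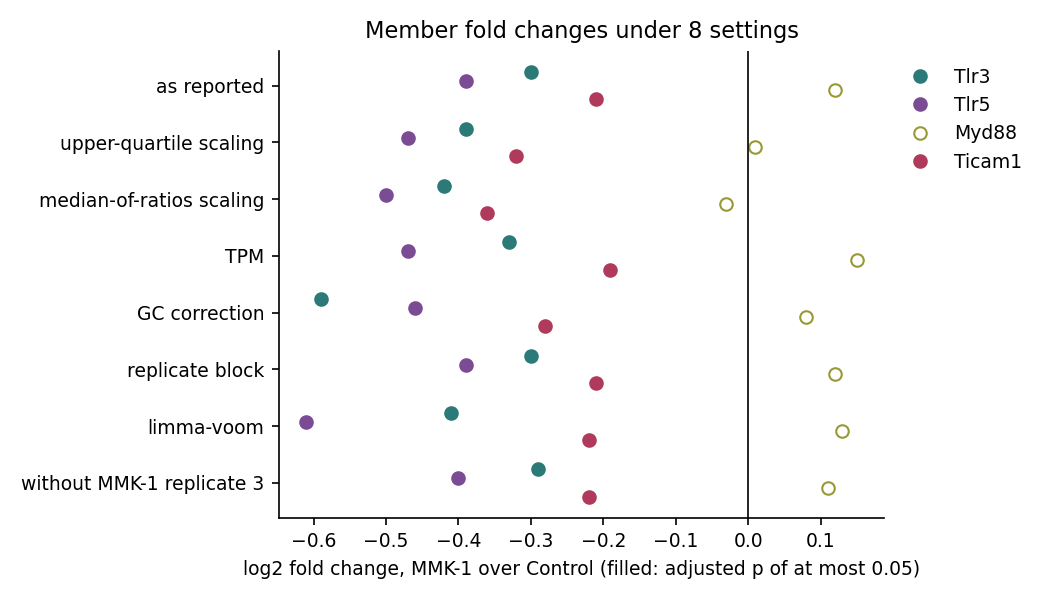
Log2 fold change of MMK-1 over Control for the 4 genes on the horizontal axis, for the test as reported and 7 other settings on the vertical axis; filled points have an adjusted p of at most 0.05. Tlr3, Tlr5 and Ticam1 are below 0 and filled throughout, and Myd88 is open throughout and lies between −0.03 and 0.15.

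Nod1 and Nod2 were barely detected. The Control replicates held 11, 21 and 3 fragments of Nod1, and the MMK-1 replicates held 10, 32 and 42. The groups overlapped through MMK-1 replicate 1, and the spread within each group was wide. A second fit on log2(FPKM + 0.1) for 13385 genes, those averaging 0.1 FPKM or more, admitted Nod1 beside the 4 genes above, and it gave Nod1 a log2 fold change of 0.66 with an SE of 0.369 and an adjusted p of 0.147. Nod1 passed the filter only through the MMK-1 group, with a mean of 0.172 FPKM against 0.0696 FPKM in the controls, so its direction in this fit supports nothing. This fit called 3 of the 5 members it tested, all lower, where 67.6% of its genes were called in either direction. Without MMK-1 replicate 1, the lowest of that group, the log2 fold change of Nod1 was 0.99 with an adjusted p of 0.0355, and since the filter again admitted it only through the high libraries, this was not counted as a change. Summed over libraries, Nod1 had 35 control and 84 MMK-1 fragments, and the ratio per fragment sequenced was 2.48, with a 95% interval from 1.66 to 3.8 that covers counting error only.

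Nod2 had 9, 16 and 22 fragments in the controls and 17, 16 and 20 with MMK-1. The MMK-1 libraries lay within the range of the controls. The ratio was 1.17 with a counting interval from 0.773 to 1.77, so a change of Nod2 was not detectable at this depth.

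The surface receptors for lipoproteins and lipopolysaccharide were near the limit of detection in every library. Tlr1 had 0, 1 and 4 fragments in the controls and 3, 5 and 2 with MMK-1. Tlr2 had 0, 0 and 1 in the controls and 5, 1 and 2 with MMK-1. Tlr4 had 1 fragment in each control library and 6, 2 and 2 with MMK-1. These are single fragments in libraries of 35512739 to 37537463, and MMK-1 replicate 1 held the highest count of Tlr2 and of Tlr4. The ratio of the summed fragments of Tlr2 was 8.28 with a counting interval from 1.11 to 367, and that of Tlr4 was 3.45 with an interval from 0.888 to 19.5. For Tlr1 it was 2.07, with an interval from 0.645 to 7.72. Tlr9 had 1 fragment in MMK-1 replicate 1 and 0 in the other 5 libraries. A count of 0 leaves room for up to 3 fragments in a library, which for Tlr9 is 0.0230 to 0.0243 FPKM.

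Limma-voom on the recovered fragments, over the 15898 genes with at least 10 fragments in all, tested 8 of the 10 genes and left out Tlr2 and Tlr9. It called 3, again Tlr3, Tlr5 and Ticam1, where 59.6% of its genes were called in either direction. Of the 4 sparse genes it tested, 0 were called, and 0 reached 0.05 before adjustment either, where 10130 of its 15898 genes did. Their adjusted p was 0.0998 for Nod1, 0.185 for Tlr4, 0.214 for Tlr1 and 0.553 for Nod2. All 4 had fitted log2 fold changes above 0, between 0.30 and 1.42, and with counts this low such values say little of each gene.

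**Figure D3:**
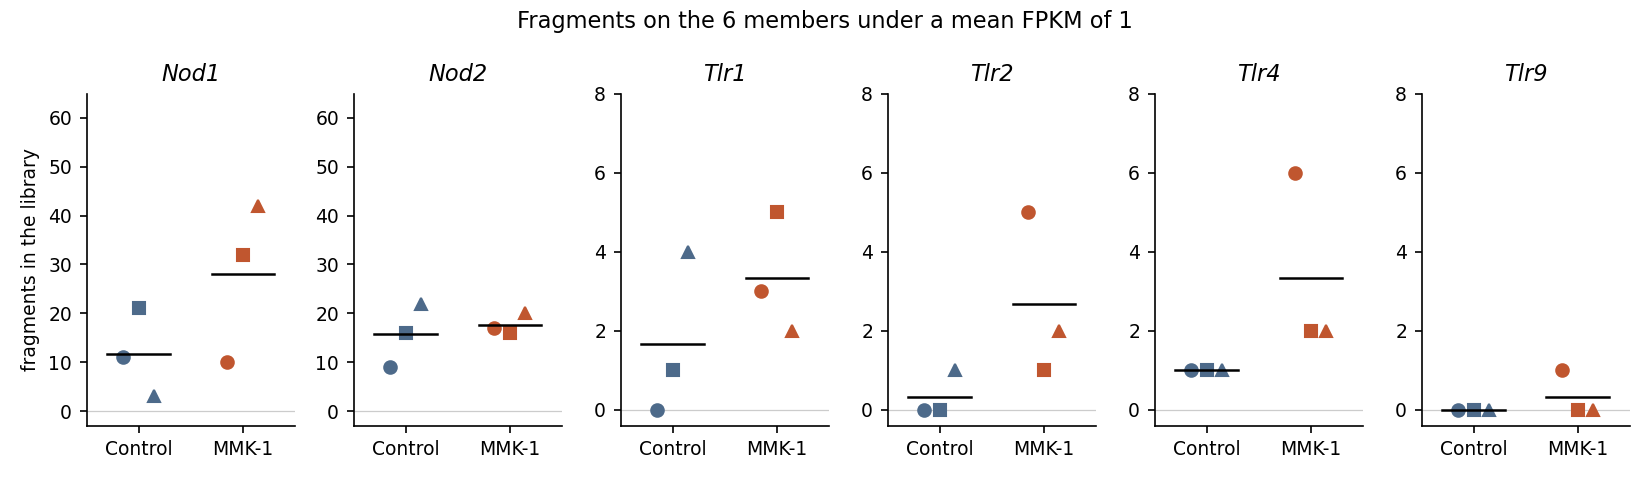
Number of fragments on Nod1, Nod2, Tlr1, Tlr2, Tlr4 and Tlr9 in each library, with circles, squares and triangles for replicates 1, 2 and 3 and lines for group means; Nod1 and Nod2 have a wider vertical range than the 4 Toll-like receptors. Nod1 spans 3 to 42 fragments with the groups overlapping, and no library holds more than 6 fragments on any of the 4 Toll-like receptors.

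Other Toll-like receptors were as sparse. Tlr6, Tlr7, Tlr12 and Tlr13 had at most 7 fragments in the sum of a group, and none entered the first test. Co-receptors and chaperones of these receptors were mostly above the filter or near it. Ly96, which encodes the MD-2 protein that binds lipopolysaccharide with Tlr4, fell from 5.67 ± 0.335 to 3.85 ± 0.544 FPKM, while Tlr4 itself was nearly absent. Cd14, another lipopolysaccharide binding protein, was at 0.579, 0.529 and 0.870 FPKM in the controls and at 1.37, 1.14 and 1.31 FPKM with MMK-1, without overlap. Its mean was under the filter of the first test, and limma on log2(FPKM + 0.1), the fit for low genes, gave Cd14 a log2 fold change of 0.88 with an adjusted p of 0.00218, so it rose there, as in limma-voom at 0.97 with an adjusted p of 0.00465. Unc93b1, which carries endosomal receptors such as Tlr3 and Tlr9 from the endoplasmic reticulum, rose from 4.99 ± 0.183 to 7.32 ± 0.157 FPKM with a log2 fold change of 0.47 and an adjusted p of 2.7e-05. Its direction was thus opposite to that of Tlr3. Cd36, a scavenger receptor that can act with Tlr2, fell with a log2 fold change of −1.18, or −2.17 in limma-voom, which the pseudocount does not shrink. Of 5 genes tested in this list 1 rose and 3 fell, where 48.5% of all genes tested rose and 24.7% fell. The median log2 fold change was −0.23, compared with 0.13 over all genes tested. The filter partly set this count. Cd36, at 2.54 FPKM in the controls and 0.564 FPKM with MMK-1, passed only through the controls, and Cd14 was left out.

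Of the genes that relay the Myd88 signal, Tirap, which bridges Myd88 to surface receptors, rose from 2.22 ± 0.222 to 2.90 ± 0.225 FPKM. It was not called with median-of-ratios scaling, at 0.16 with an adjusted p of 0.0790. With the GC correction and the replicate block together it was not called either, at 0.21 with an adjusted p of 0.0753. Pik3ap1, another adaptor with a TIR domain, rose with a log2 fold change of 0.39, or 0.69 in limma-voom. Its control mean was 0.995 FPKM, so it entered the first test only through the MMK-1 group, with a mean of 1.61 FPKM. In the list of IRAK kinases, TRAF ligases and the TAK1 complex, 6 of 12 genes tested rose, 1 fell and 5 were not called, with a median of 0.18. Over all genes tested 48.5% were called higher and 24.7% lower, with a median of 0.13, so the share that rose was near the background. Traf6, the ubiquitin ligase downstream of Myd88, rose from 5.39 ± 0.0407 to 8.56 ± 0.329 FPKM. Tab2 and Map3k7, a subunit and the kinase of the TAK1 complex, rose with log2 fold changes of 0.45 each. Irak2 fell with −0.56. The kinase Irak1 rose with 0.26, but with median-of-ratios scaling it was at 0.11 with an adjusted p of 0.0517. Irak4 was at −0.10 with an adjusted p of 0.159, and it was called lower with that scaling, at −0.24 with an adjusted p of 0.00303, with upper-quartile scaling, at −0.21, with the GC correction, at −0.15, and without MMK-1 replicate 3, at −0.16 with an adjusted p of 0.00771. With upper-quartile scaling 6 genes of this list rose and 3 fell.

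The route of Tlr3 and Ticam1 to interferon regulatory factors held genes called in both directions. Of 7 genes tested 3 rose, 3 fell and 1 was not called, with a median of −0.08, where 48.5% of all genes tested rose and 24.7% fell, and with upper-quartile scaling 2 rose and 4 fell. Irf7, a transcription factor of the interferon response, fell from 20.5 ± 1.46 to 4.96 ± 0.406 FPKM with a log2 fold change of −1.85 and an adjusted p of 7.6e-08. The kinases Ikbke and Tbk1, which act on such factors, fell with log2 fold changes of −0.72 and −0.30. Irf3, the factor that these kinases activate downstream of Ticam1, was called higher at 0.20 with an adjusted p of 0.00464, but with upper-quartile scaling it was at 0.09 with an adjusted p of 0.0887. Tank, a scaffold of these kinases, was at 0.37 and called higher, but with the GC correction it was at 0.02 with an adjusted p of 0.853. Cytosolic sensors of RNA and DNA and their adaptors, such as Mavs, were given for comparison, since Tlr3 also senses RNA: of 5 genes tested 4 fell and 1 rose, with a median of −0.47, against the same shares of all genes. Dhx58 fell with −1.15, or −1.78 in limma-voom, and Rigi with −1.08, while the DNA sensor Cgas rose with 0.53.

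Downstream of Nod1 and Nod2, the kinase Ripk2 had 0.890, 1.09 and 1.38 FPKM in the controls and 1.37, 0.938 and 1.43 FPKM with MMK-1. The groups overlapped, and the log2 fold change of 0.08 had an adjusted p of 0.522. In the list of NOD relay genes 3 of 10 tested rose, 5 fell and 2 were not called, with a median of −0.05, where 48.5% of all genes tested rose and 24.7% fell. With upper-quartile scaling 2 rose and 5 fell, with a median of −0.16. Irgm1, a GTPase of antibacterial autophagy, fell with −0.66 and Rnf31, the catalytic subunit of the linear ubiquitin ligase, fell with −0.60. Erbin, a binding partner of Nod2, was at 52.2, 52.9 and 36.0 FPKM with MMK-1 against a mean of 30.2 ± 0.242 FPKM in the controls, and its log2 fold change of 0.60 was thus carried mostly by MMK-1 replicates 1 and 2. With the GC correction it was 0.30.

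Transporters that bring NOD ligands into cells held the widest change of any gene named here. Slc15a1, the intestinal peptide transporter PepT1 that also carries muramyl dipeptide, was at 50.5, 51.1 and 49.0 FPKM in the controls and 3.82, 3.58 and 3.79 FPKM with MMK-1. Its log2 fold change was −3.44 with an SE of 0.0434 and an adjusted p of 4.9e-10. Slc46a3 fell with −1.44, or −2.18 in limma-voom, and Slc15a4, an endolysosomal transporter, rose with 0.32, or 0.20 with median-of-ratios scaling. Thus 2 of 3 genes tested fell and 1 rose, where 24.7% of all genes tested fell and 48.5% rose. The filter partly set this count. Slc46a3, at 4.23 FPKM in the controls and 0.932 FPKM with MMK-1, passed only through the controls. Slc15a2, at 0.786 FPKM in the controls and 1.10 FPKM with MMK-1 without overlap, lay under the filter.

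In the IKK and NF-κB list 5 of 8 genes tested rose and 2 fell, with a median of 0.18, near the 48.5% and 24.7% of all genes tested and their median of 0.13, and with upper-quartile scaling 3 rose and 3 fell. Chuk and Ikbkb, the catalytic IKK subunits, rose with 0.44 and 0.36, and Rela, an NF-κB subunit, rose with 0.31. With the GC correction these were 0.21 for Chuk, 0.33 for Ikbkb and 0.19 for Rela, and with median-of-ratios scaling 0.29, 0.22 and 0.17. Among inhibitors of NF-κB and of Toll-like receptor signalling 3 of 12 tested rose and 4 fell, with a median of −0.06, where 48.5% of all genes tested rose and 24.7% fell, and with upper-quartile scaling 3 rose and 6 fell, with a median of −0.16. Bcl3, an atypical IκB protein, rose with 0.78 and Nfkbia, which encodes IκBα, with 0.50, while Tnip1, a partner of the deubiquitinase A20, fell with −0.64. Of the NF-κB response genes 5 of 16 were tested and 11 lay under the filter, among them Tnf, Il6, Il1b, Cxcl1 and Cxcl2 with at most 10 fragments in the sum of a group. The 5 included Tnfaip2, which rose with 1.26, or 1.99 in limma-voom, Nos2, which rose with 0.98, or 1.90 in limma-voom, and Pglyrp1, a secreted peptidoglycan binding protein, which rose with 0.67, and 4 of the 5 rose, or 3 with upper-quartile scaling, where 48.5% of all genes tested rose. This count is partly set by the filter, since Nos2 and Tnfaip2 had control means of 0.559 and 0.891 FPKM and passed only through the MMK-1 group. The other, Ccl20, which encodes a chemokine that attracts cells bearing Ccr6, fell from 3.01 ± 0.281 to 1.53 ± 0.12 FPKM with a log2 fold change of −0.66 and an adjusted p of 3.6e-05. Csf2, a growth factor of myeloid cells, lay under the filter with 84 fragments in the controls and 18 with MMK-1, and fell in limma-voom with an adjusted p of 9.8e-04. Of the list of interleukin-1 receptor genes, which also holds the interleukin-17 receptor gene Il17re, none of the 6 in the table reached the mean level that the first test required.

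**Figure D4:**
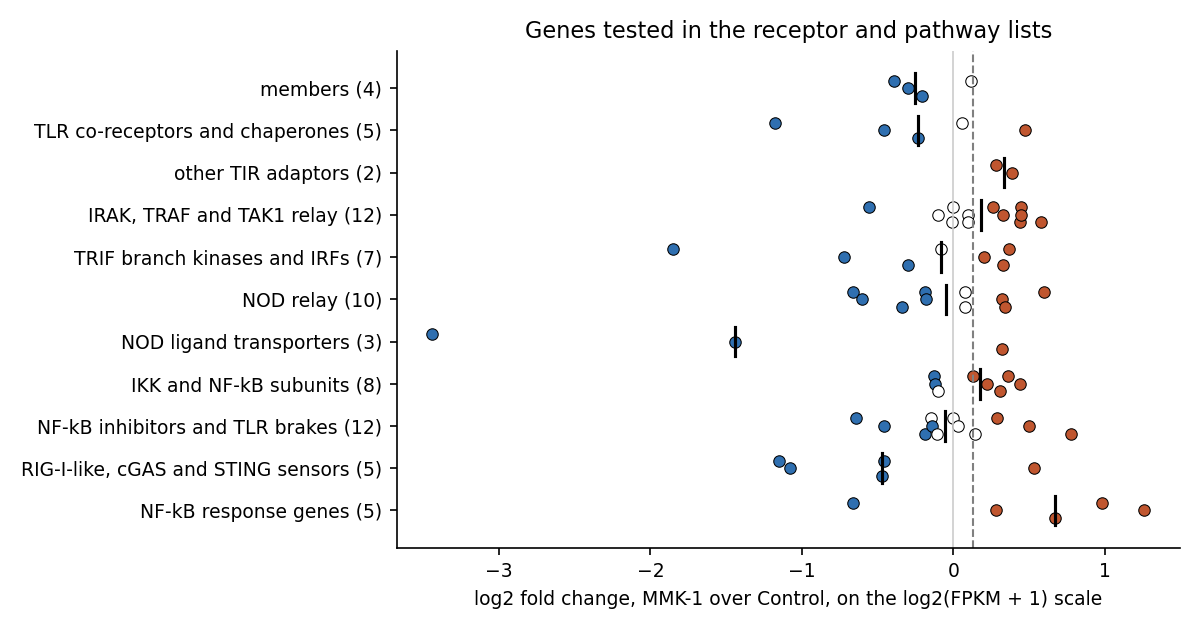
Log2 fold change of MMK-1 over Control on the log2(FPKM + 1) scale for every tested gene of the receptor list and of 10 pathway lists, with the number tested in parentheses; orange points were called higher and blue points lower (adjusted p of at most 0.05), white points were not called, black bars are list medians and the dashed line is the median of 0.13 over all genes tested. Slc15a1 lies farthest from 0 at −3.44, and most lists hold genes on both sides.

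Markers of several epithelial cell types moved with the treatment. Over all genes tested 48.5% rose and 24.7% fell. Of the 10 enterocyte markers 9 fell and 1 rose, or 9 and 0 with upper-quartile scaling, and their summed FPKM was 9340 to 9440 in the controls and 5130 to 5530 with MMK-1. All 6 stem cell markers and all 6 Paneth cell markers tested rose, with summed FPKM of 58.7 to 60.1 against 328 to 343 for stem cells and of 446 to 489 against 1410 to 1540 for Paneth cells. In bulk RNA fewer cells of a type and less RNA per cell cannot be told apart, so a lower Tlr3, Tlr5, Ticam1 or Slc15a1 can be either. The part of the cell types in these results was not tested. Of the 7 enteroendocrine markers 5 rose and 2 were not called, with summed FPKM of 296 to 312 in the controls and 423 to 433 with MMK-1. Of the 7 goblet cell markers 5 rose and 2 fell, or 4 and 2 with upper-quartile scaling, with sums of 1380 to 1440 and 1400 to 1530 FPKM. The 6 tuft cell markers were under the filter, with sums of 0.661 to 0.692 FPKM in the controls and 1.22 to 1.38 FPKM with MMK-1. Of the 8 epithelial markers 4 fell, 3 rose and 1 was not called, or 5 fell and 2 rose with upper-quartile scaling, and their summed FPKM was 3640 to 3670 in the controls and 2510 to 2700 with MMK-1. Krt20 and Vil1, which mark differentiated cells, fell with log2 fold changes of −1.52 and −1.21. Epcam was at 377 to 415 FPKM in all libraries and was the marker not called in the first test. With upper-quartile scaling Epcam was called lower, at −0.12 with an adjusted p of 0.0125. Of 11 leukocyte and macrophage markers in the table Itgax was at 0 in all libraries and Ptprc had 5 fragments in the controls and 2 with MMK-1, while the summed FPKM of the list was 6.44 to 7.24 in the controls and 2.50 to 3.71 with MMK-1, mostly through Cd68 and Itgam, which fell. The stromal and endothelial list summed to 0.155 to 0.296 FPKM in the controls and 0.175 to 0.344 FPKM with MMK-1, with Kdr at 0.

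Across all genes tested 5118 were called higher and 2606 lower, and with median-of-ratios scaling the split was 3666 higher and 3916 lower, since the median log2 fold change moved from 0.13 to −0.0043. The 3 members that fell did so under either scaling, at −0.30 and −0.42 for Tlr3, −0.39 and −0.50 for Tlr5, and −0.21 and −0.36 for Ticam1. MMK-1 replicate 3 stood apart from the other MMK-1 libraries, with a chi-square per degree of freedom of 36.6 and 31.3 over genes against 2.83 to 4.97 for the other pairs of replicates. Without it the log2 fold changes were −0.29 for Tlr3, −0.40 for Tlr5, −0.22 for Ticam1 and 0.11 for Myd88.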

How the data were processed

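RNA from 6 libraries, 3 of Control and 3 of MMK-1, was analysed from the FPKM values that the authors deposited for 21397 genes. FPKM divides fragments by gene length and library total, so a few abundant genes can move all others. The submitters' processing notes name HISAT2, HTSeq, R 3.2.0, DESeq2 and the build mm10 without roles. The annotation and the strand setting are not given in the sources used here. Samples were grouped by their titles.

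FPKM values were whole multiples of a step per gene and library, from which fragments were recovered for 100.0% of genes, and in simulated libraries 98.1% of 3000 genes came out exact. Library totals were 35512739 to 37537463 fragments. Counting intervals are exact at 95% and cover counting error only.

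Differences were tested two-sided with limma 3.58.1 in R 4.3.3, with trend, on log2(FPKM + 1) for genes averaging 1 FPKM or more, on log2(FPKM + 0.1) for those averaging 0.1 or more, and with limma-voom on fragments. All p-values were Benjamini-Hochberg adjusted over all genes tested. On simulated data for the first test, 93.8% of genes changed by a fold of 1.3 were called among 10415, with 14 unchanged genes called. In the second, among 13188 genes, 76.0% were called. The changed genes were drawn only from genes with many fragments, and the simulated spread was the same for all genes, with no outlying library. Neither share therefore applies to sparse genes such as Nod1. Permutation tests used scipy 1.17.1 in Python 3.11.15. Alternatives covered scaling, unit, pseudocount, filter, trend, GC content with a local regression span of 0.3, a replicate block and leaving out each library.

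Positions are from GENCODE vM21 on GRCm38, the assembly of mm10, and start regions from RefSeq, which held 9 of the 10 members. The members and gene lists were chosen with earlier results of these data known. Named genes were all members, up to the 3 widest changes in each list, with ties, and genes on the direct route of a member. Examples among genes under the filter, and Irf3, Ccl20, Krt20 and Vil1, were chosen after their values were seen.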

Additional observations from a re-analysis of the deposited data

How the results depend on the processing

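The number of members called at an adjusted p of at most 0.05, at a fold change of 2 and in the fit for low genes stayed within 1.5 times under every alternative run. Over 17 alternatives the log2 fold change lay between −0.61 and −0.37 for Tlr5, between −0.59 and −0.27 for Tlr3 and between −0.36 and −0.18 for Ticam1, and each remained called lower. Leaving out 1 library gave −0.42 to −0.37, −0.33 to −0.27 and −0.22 to −0.18 for these genes. Myd88 lay between −0.03 and 0.17. It reversed with median-of-ratios scaling, at −0.03, and was called only without Control replicate 2, at 0.17 with an adjusted p of 0.0235. Over 15 alternatives Nod1 lay between 0.13 and 1.42 and was called only without MMK-1 replicate 1, at 0.99 with an adjusted p of 0.0355, where it passed the filter only through the high libraries, while without MMK-1 replicate 3 it fell under the filter and has no value. The cause of these shifts was not tested.

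The replicate numbers did not pair the libraries, as the correlations of deviations from the group means were 0.03, −0.04 and 0.03. With the replicate number as a block, the log2 fold changes were −0.30 for Tlr3, −0.39 for Tlr5, −0.21 for Ticam1, 0.12 for Myd88 and 0.66 for Nod1, and all 3 calls and both other results kept their side of the threshold. The block together with the GC correction, chosen after seeing the data, changed no call of a member. Depth limits Tlr1, Tlr2, Tlr4, Tlr9, Nod1 and Nod2, which had 119 fragments or fewer in all 6 libraries together.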
